A study of Mus musculus with 8 samples.

Results

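The genes described here are 32 genes of cholesterol synthesis, uptake and efflux, measured by RNA sequencing in activated primary microglia. They were chosen by symbol and had to stand under the same identifier in both deposited gene tables. All 32 were found among the 31406 genes of the table that holds both groups of the series, of which 30302 were held by both tables, and all 32 passed the filter on low counts. They comprise 7 enzymes of the mevalonate pathway, 11 enzymes from squalene synthase to cholesterol, 5 genes of sterol sensing and sterol-regulated transcription, 4 genes of uptake, transport and storage, and 5 genes of liver X receptor (LXR) signalling and efflux.

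Microglia, the phagocytes that reside in the brain, were isolated from the striatum of wild-type C57/BL6 pups aged 2 to 4 days and kept in culture for 15 days. All 8 cultures were activated for 48 h with lipopolysaccharide (LPS) at 0.01% (v/v) and interferon-γ at 0.002% (v/v), the latter a human protein according to the list of reagents, and received ligands at 24, 32 and 40 h of activation. By their titles, 4 libraries come from cultures given SCH 58261, an antagonist of the adenosine A2A receptor (A2A antagonist group). The other 4 come from cultures given SCH 58261 together with 200 nM 2-Cl-IB-MECA, an agonist of the adenosine A3 receptor (dual group). A second label, on treatment, assigns 2-Cl-IB-MECA the other way round. Titles and count column names point to the same grouping and were followed, so the direction of each difference rests on the titles. The study used 4 pregnant animals in all, and nothing states that the libraries came from separate animals, so the p-values measure only the spread between these samples, which may be technical. No date or sequencing batch was given.

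The total count of a library was 38427491 to 45878639 for the A2A antagonist and 32630602 to 45544451 for the dual treatment. Marker genes were read as summed FPKM (fragments per kilobase of gene length and per 1000000 fragments). The 12 microglial markers summed to 803 to 901 FPKM in the A2A antagonist group and to 733 to 784 FPKM in the dual group, and P2ry12, a marker of resting microglia, was the lowest of them at 0.715 FPKM. The 10 astrocyte markers summed to 1095 to 1149 FPKM and 1125 to 1189 FPKM, the 8 fibroblast markers to 397 to 457 FPKM and 409 to 512 FPKM, and the 10 oligodendrocyte lineage markers to 246 to 263 FPKM and 227 to 247 FPKM. The summed level of the astrocyte markers was above that of the microglial markers in every library. Such sums depend on the genes listed and do not give the shares of cell types. The methods report a high purity of microglia by CD11b labelling. Markers of endothelial cells (6 of 7 listed were in the table) and of neurons (7 markers) summed to at most 12.2 and 12.1 FPKM, and no marker in the table was at 0 in all libraries. By unadjusted p, 3 microglial markers were lower and 1 higher in the dual group, 1 of them called after adjustment. The astrocyte list had 1 lower and 2 higher, the fibroblast list 4 higher, the oligodendrocyte list 1 of each and the other lists none. Of all genes tested, 6.81% were lower and 5.98% higher by this measure, and 0.208% were called. By sign alone, 0 fibroblast markers were lower and 8 higher in the dual group (median log2 difference 0.127). The numbers lower and higher were 7 and 5 for microglia, 3 and 7 for astrocytes and 8 and 2 for the oligodendrocyte lineage. For endothelial cells they were 3 and 3, and for neurons 2 and 3. The microglial sums of the dual group all lay below those of the A2A antagonist group. In such bulk samples fewer cells of a type and less RNA per cell cannot be told apart, and the part of these markers in the results below was not tested.

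Cells make cholesterol from acetyl-CoA through mevalonate, isoprenoids, squalene and lanosterol. When membrane sterol is low, Scap carries the SREBP transcription factors to the Golgi, where they are released to switch on the genes of synthesis and uptake, and Insig proteins hold them back when sterol is plentiful. Oxysterols activate LXR, which drives export of cholesterol through the ABC transporters. In the brain, which is separated from plasma lipoproteins, cholesterol is made locally, largely by glia, and microglia take up and export lipid from debris and myelin.

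Promoters of the members were read to describe the DNA around their transcription starts. Whether the members share a regulator was not tested. RefSeq (GRCm38.p6) gave 36 promoters for 27 of the 32 members, each 300 bases long, with 250 bases before the transcription start and 50 after it. Both strands were searched for the core of the sterol regulatory element, TCACNCCAC, and for the CCAAT box, CCAAT, bound by nuclear factor Y, which works together with SREBP. The CCAAT box stood in 21 of 36 member promoters (58.3%), those of 20 members, against 37.4% of all 32851 promoters. Among the 15 enzymes with a promoter, 14 had it in at least 1 promoter. Counted by promoter, as in the share over all promoters, 14 of 18 enzyme promoters held it. The core of the sterol regulatory element stood in 1 member promoter (2.78%), that of Hmgcs1, against 1.24% of all promoters. The pattern used for the LXR element DR4 matched none of the 36 member promoters, and 27 of all 32851 (0.0822%). Because it matches so rarely, its absence does not show that the members lack an LXR element. Abcg1 had no promoter to search. The stretches below lie upstream of the start and are shown because they hold these letters in Hmgcs1 and in the 8 members that hold CCAAT and had an unadjusted p under 0.05 between the groups. Capitals mark CCAAT, its reverse complement ATTGG, or the sterol element core.
Hmgcs1, chr13:119690101-119690330, plus strand: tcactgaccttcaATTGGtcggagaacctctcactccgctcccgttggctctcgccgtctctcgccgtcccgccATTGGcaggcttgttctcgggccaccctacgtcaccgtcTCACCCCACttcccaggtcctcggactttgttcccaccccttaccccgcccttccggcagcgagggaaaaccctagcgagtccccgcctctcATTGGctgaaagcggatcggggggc
Dhcr7, chr7:143830109-143830189, plus strand: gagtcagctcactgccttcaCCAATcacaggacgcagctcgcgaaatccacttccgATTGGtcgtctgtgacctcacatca
Mvd, chr8:122443425-122443502, minus strand: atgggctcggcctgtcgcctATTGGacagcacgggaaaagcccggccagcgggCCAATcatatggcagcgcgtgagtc
Cyp51, chr5:4104702-4104746, minus strand: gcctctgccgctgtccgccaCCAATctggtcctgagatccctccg
Lss, chr10:76531523-76531567, plus strand: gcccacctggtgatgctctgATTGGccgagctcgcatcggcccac
Insig1, chr5:28071176-28071220, plus strand: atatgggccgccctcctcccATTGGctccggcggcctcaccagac
Nsdhl, chrX:72918392-72918520, plus strand: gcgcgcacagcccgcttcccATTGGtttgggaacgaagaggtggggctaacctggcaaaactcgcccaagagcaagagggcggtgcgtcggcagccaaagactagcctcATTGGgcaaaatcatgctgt
Pmvk, chr3:89454385-89454429, plus strand: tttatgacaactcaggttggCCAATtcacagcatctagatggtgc
Mvk, chr5:114444076-114444268, plus strand: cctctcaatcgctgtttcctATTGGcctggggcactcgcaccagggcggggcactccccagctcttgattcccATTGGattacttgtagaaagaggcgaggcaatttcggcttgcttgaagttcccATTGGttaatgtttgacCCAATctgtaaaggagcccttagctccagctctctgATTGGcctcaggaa
A match is a description of the letters and not a bound site. Dhcr7, Mvd and Nsdhl each hold the CCAAT letters at 2 positions, Hmgcs1 at 3 and Mvk at 5, while Cyp51, Lss, Insig1 and Pmvk hold them once. The distance from the start differed widely, from 14 bases for the nearest match of Mvk to 237 bases for the farthest of Hmgcs1.

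Levels were compared between genes per length, as the authors' FPKM. The mean FPKM in the A2A antagonist group was 44.2 ± 1.45 (SD, n = 4) for Hmgcs1, the cytosolic HMG-CoA synthase and the most abundant of the mevalonate enzymes, and 0.445 ± 0.0773 for Fdps, farnesyl diphosphate synthase, the least abundant. Fdps shares 1124 exonic bases with Gm43738 on the same strand, so its level and rank are uncertain. From squalene to cholesterol, Fdft1 (squalene synthase) was highest at 26.1 ± 0.802 FPKM and Lss (lanosterol synthase) lowest at 3.63 ± 0.0558 FPKM. Srebf1, the gene of SREBP-1, stood at 41.4 ± 1.49 FPKM and Insig2, a sterol sensor of the endoplasmic reticulum, at 16.0 ± 0.825 FPKM. Of uptake, transport and storage, the endocytic receptor Lrp1 was highest at 106 ± 3.25 FPKM and Mylip, a ubiquitin ligase that degrades lipoprotein receptors, lowest at 4.40 ± 0.364 FPKM. Ch25h, which makes the oxysterol 25-hydroxycholesterol and is induced in inflamed macrophages, was the most abundant of the 32 members at 143 ± 5.08 FPKM, and Abcg1, a cholesterol exporter, was the least abundant of the efflux genes at 4.00 ± 0.125 FPKM. The other exporter, Abca1, stood at 107 ± 1.33 FPKM, and the levels of Abca1 and Lrp1 differed by less than the spread of Lrp1. Reading levels as CPM per kilobase of the deposited gene length left the highest and lowest member of each of the 5 role groups in place. That reading uses the same counts and lengths as FPKM, so it is no separate check of the order.

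**Figure D1:**
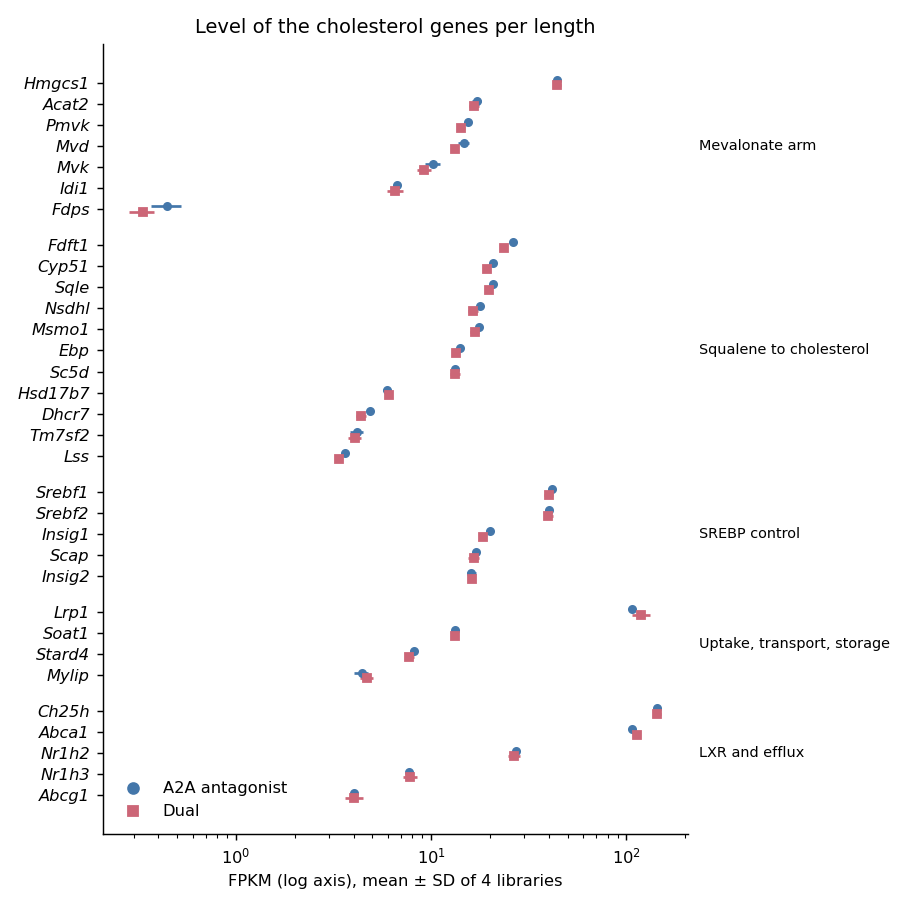
Mean FPKM of the 32 members (log axis) in the A2A antagonist and dual groups, ordered by role; points are means and bars the SD over 4 libraries. Ch25h, Abca1 and Lrp1 lie above 100 FPKM, Fdps lies below 1 FPKM, and the 2 groups lie close together for each gene.

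The dual group was compared with the A2A antagonist group to see which transcripts differed once the A3 agonist was added. No member passed the adjusted threshold. At an adjusted p under 0.05 (edgeR quasi-likelihood F test, Benjamini-Hochberg adjustment over 18756 genes) 39 genes were called (0.208%), and 0 of the 32 members. The smallest adjusted p of a member was 0.0947, that of Fdft1. At an unadjusted p under 0.05 there were 12 members (37.5%), against 12.8% of all genes tested. Lower in the dual group by that measure were 10 members (31.25%), against 6.81% of all genes, and higher were 2 (6.25%), against 5.98%. The DESeq2 Wald test called 1 member, Fdft1, with an adjusted p of 0.0109, among 381 genes called in all, and gave 13 members an unadjusted p under 0.05, against 7.36% of 31406 genes. Without the filter on low counts, edgeR called 366 of 31406 genes, Fdft1 (adjusted p = 0.0293) and Lrp1 (adjusted p = 0.00607) among them. In that fit 13 members had an unadjusted p under 0.05, against 9.99% of those genes. The 31406 genes include those with low counts that the filter removes, whereas all 32 members pass it. The shares of 7.36% and 9.99% are thus taken over genes less like the members than the share of 12.8%.

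By sign of the log2 difference, 22 members were lower and 10 higher in the dual group (median -0.04), whereas 48.5% of all genes tested were lower (median 0.00). Every dual library lay below every A2A antagonist library for 5 members (Fdft1, Lss, Cyp51, Dhcr7 and Insig1), 15.6% of the 32 against 4.06% of all genes tested. The reverse held for 1 member, Abca1, against 3.36% of all genes. Differences were small for all members but Fdps. Among the 31 members above 10 counts per 1000000 (CPM) the largest difference was 0.164 on the log2 scale, that of Lrp1, and the median coefficient of variation of the members within the A2A antagonist group was 3.43%.

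**Figure D2:**
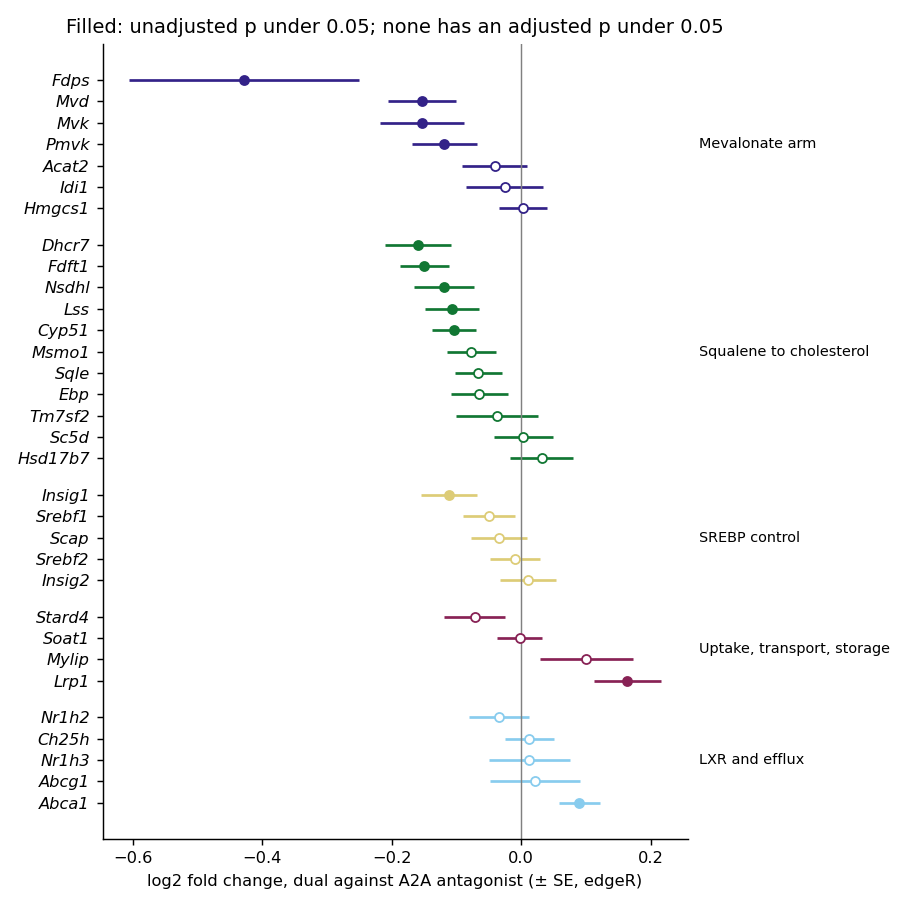
Log2 difference between the groups (dual minus A2A antagonist) for the 32 members, grouped by role; points are estimates of the edgeR fit, filled where the unadjusted p was under 0.05, and bars their standard errors. Most synthesis enzymes lie left of 0, Lrp1 and Abca1 lie right of it, and Fdps lies farthest left with the widest bar.

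Among the 18 enzymes of synthesis 15 were lower in the dual group and 3 higher, with a median log2 difference of -0.09. The unadjusted p was under 0.05 for 9 of the 18, all lower, against 6.81% of all genes tested that were lower by that measure. The summed level of the 18 enzymes was 1060, 1064, 1033 and 1061 CPM in A2A antagonist replicates 1 to 4. In dual replicates 1 to 4 it was 988, 1027, 985 and 1026 CPM. The highest dual library lay just below the lowest A2A antagonist library, by less than the spread within either group. This separation rests in part on Fdft1, at 109 CPM in A2A antagonist replicate 3 and 95.7 CPM in dual replicate 4. The exons of Fdft1 overlap another gene. How often sums of other genes separate the groups was not computed. No enzyme passed the adjusted threshold in the edgeR fit.

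The 7 mevalonate enzymes had 6 lower and 1 higher, with a median log2 difference of -0.12. The unadjusted p was under 0.05 for 4 of the 7, all lower, against 6.81% of all genes tested. Mvd, mevalonate diphosphate decarboxylase, stood at 25.1, 28.7, 27.4 and 28.4 CPM in A2A antagonist replicates 1 to 4 and at 25.1, 25.6, 24.5 and 23.5 CPM in dual replicates 1 to 4. A2A antagonist replicate 1 lay inside the range of the dual group, and the other 3 lay above every dual library. The log2 difference of Mvd was -0.15 ± 0.05 (SE, edgeR adjusted p = 0.213). Mvk, mevalonate kinase, gave 25.2, 29.9, 25.8 and 29.1 CPM without and 23.7, 27.5, 24.8 and 23.0 CPM with the A3 agonist. Dual replicate 2 lay above A2A antagonist replicates 1 and 3, the other dual libraries lay below every A2A antagonist library, and the log2 difference was -0.15 ± 0.07 (edgeR adjusted p = 0.326). For Pmvk, phosphomevalonate kinase, the A2A antagonist libraries held 25.5, 27.5, 26.3 and 27.4 CPM and the dual libraries 24.9, 25.9, 24.1 and 23.6 CPM. The ranges of Pmvk overlapped by dual replicate 2 alone, with a log2 difference of -0.12 ± 0.05 (edgeR adjusted p = 0.315).

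Fdps, which makes farnesyl diphosphate for sterols and for protein prenylation, had few counts: 59, 103, 72 and 92 in the A2A antagonist libraries and 56, 47, 63 and 59 in the dual libraries. Its levels were 1.53, 2.26, 1.72 and 2.03 CPM against 1.72, 1.24, 1.37 and 1.33 CPM, and dual replicate 1 lay inside the range of the A2A antagonist group. The log2 difference was -0.43 ± 0.18 (edgeR adjusted p = 0.312), the largest of any member and the least precise. In the GENCODE annotation, 27.9% of the 31-base words of Fdps also occur in another gene, chiefly Gm43738, which overlaps it, so its counts are uncertain. The other 3 enzymes of the arm, Hmgcs1, Acat2 and Idi1, had log2 differences of 0.00, -0.04 and -0.03 and adjusted p of at least 0.793. Acat2, the cytosolic thiolase at the start of the pathway, shares 43.7% of its words with other genes, chiefly Acat3, Idi1 (isopentenyl diphosphate isomerase) shares 27.1% and Hmgcs1 13.1%.

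From squalene synthase to cholesterol, 9 enzymes were lower and 2 higher, with a median log2 difference of -0.08. The unadjusted p was under 0.05 for 5 of these enzymes, all lower, against 6.81% of all genes tested. Fdft1, the first enzyme committed to sterols, stood at 107, 113, 109 and 114 CPM in A2A antagonist replicates 1 to 4 and at 102, 105, 98.1 and 95.7 CPM in dual replicates 1 to 4. All 4 dual libraries lay below all 4 A2A antagonist libraries, with dual replicate 4 the lowest. The log2 difference of Fdft1 was -0.15 ± 0.04 (SE, edgeR adjusted p = 0.0947). Fdft1 lies at chr14:63145150-63179578 on the minus strand (GRCm38) and shares 774 exonic bases with Ctsb, a lysosomal protease gene read from the other strand. Of the 31-base words of Fdft1, 31.9% occur elsewhere. Whether counting used the strand was not given in the sources used here, so how reads over the shared bases were counted is not known. Ctsb itself stood at a mean of 1942 and 1909 CPM in the 2 groups, with a log2 difference of -0.03 (edgeR adjusted p = 0.775).

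Dhcr7, 7-dehydrocholesterol reductase, which completes one route to cholesterol, stood at 28.5, 29.0, 27.5 and 29.0 CPM in the A2A antagonist group and at 27.1, 26.4, 25.3 and 23.6 CPM in the dual group. The groups did not overlap, and the log2 difference was -0.16 ± 0.05 (edgeR adjusted p = 0.179). Cyp51, the lanosterol demethylase, gave 93.2, 92.5, 90.9 and 92.5 CPM against 84.1, 87.1, 84.6 and 87.6 CPM. Both groups of Cyp51 were tight and separate, with a log2 difference of -0.10 ± 0.03 (edgeR adjusted p = 0.191). Lss, which folds oxidosqualene into lanosterol, gave 38.7, 39.5, 39.3 and 40.1 CPM against 36.0, 38.4, 35.0 and 37.1 CPM. The lowest A2A antagonist library of Lss stood just above the highest dual library, and the log2 difference was -0.11 ± 0.04 (edgeR adjusted p = 0.282).

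Nsdhl, a dehydrogenase of the removal of the C4 methyl groups, stood at 49.8, 53.1, 49.2 and 52.5 CPM in the A2A antagonist group and at 45.3, 50.1, 44.3 and 48.7 CPM in the dual group. Dual replicate 2 reached into the range of the A2A antagonist group, and the log2 difference was -0.12 ± 0.05 (edgeR adjusted p = 0.280). The remaining 6 enzymes of this arm did not reach an unadjusted p of 0.05. Their log2 differences were -0.08 for Msmo1 (C4 sterol methyl oxidase), -0.07 for Sqle (squalene epoxidase), -0.06 for Ebp (sterol isomerase) and -0.04 for Tm7sf2 (a sterol reductase), 0.00 for Sc5d (lathosterol oxidase) and 0.03 for Hsd17b7 (a ketosteroid reductase).

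**Figure D3:**
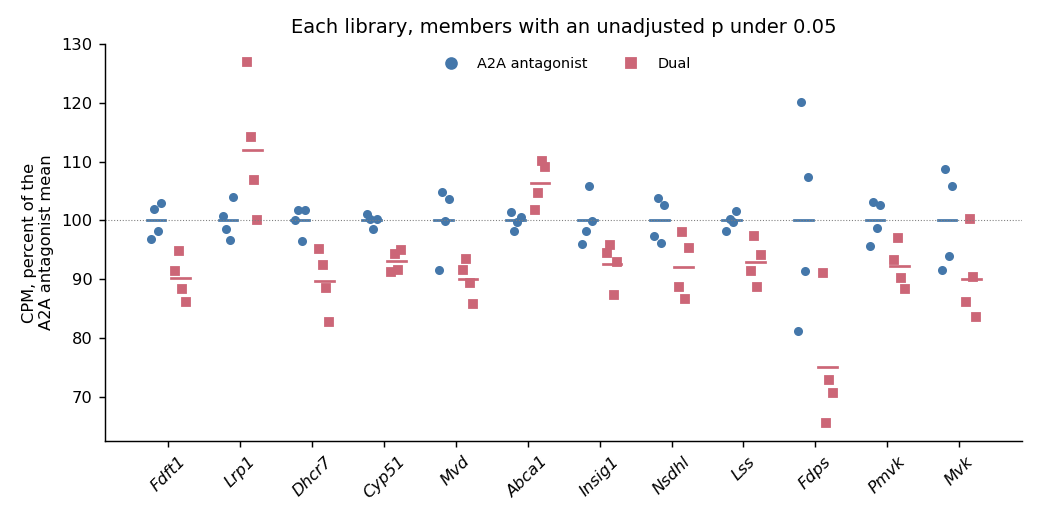
CPM of the 12 members with an unadjusted p under 0.05 in each library, as percent of the gene's mean in the A2A antagonist group (vertical axis, not starting at 0); points are libraries and short lines group means (n = 4). Fdft1, Dhcr7, Cyp51, Lss, Insig1 and Abca1 show no overlap between the groups, and the other 6 overlap.

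The 5 genes of sterol sensing and transcription had 4 lower and 1 higher, with a median log2 difference of -0.03. Insig1, an SREBP target whose protein retains Scap in the endoplasmic reticulum, stood at 59.7, 61.0, 65.8 and 62.2 CPM in A2A antagonist replicates 1 to 4 and at 58.7, 59.6, 54.2 and 57.8 CPM in dual replicates 1 to 4. The groups met closely but did not overlap, and the log2 difference was -0.11 ± 0.04 (edgeR adjusted p = 0.270). The transcription factor genes themselves gave a log2 difference of -0.05 for Srebf1 (edgeR adjusted p = 0.657) and -0.01 for Srebf2 (edgeR adjusted p = 0.952). Scap was at -0.03 and Insig2 at 0.01, neither beyond its standard error.

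Of the 4 genes of uptake, transport and storage, 2 were higher and 2 lower in the dual group. Lrp1, the endocytic receptor that takes up lipoproteins and debris, lies at chr10:127538161-127621148 on the minus strand (GRCm38). It stood at 1914, 1872, 1835 and 1973 CPM in A2A antagonist replicates 1 to 4 and at 2411, 2169.7, 2029 and 1900.3 CPM in dual replicates 1 to 4. Dual replicate 1 was far the highest and dual replicate 4 lay inside the range of the A2A antagonist group. The log2 difference of Lrp1 was 0.16 ± 0.05 (edgeR adjusted p = 0.172), 0.10 without dual replicate 1 and 0.21 without dual replicate 4. Mylip gave 0.10, Soat1 (which esterifies cholesterol for storage) -0.00 and Stard4 (a cytosolic sterol carrier) -0.07, each with an adjusted p of at least 0.557.

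Of the 5 genes of LXR signalling and efflux, 4 were higher and 1 lower (median log2 difference 0.01). Abca1, the transporter that loads cholesterol onto apolipoproteins, stood at 1131, 1094, 1112 and 1121 CPM in A2A antagonist replicates 1 to 4 and at 1134, 1166, 1228 and 1217 CPM in dual replicates 1 to 4. The lowest dual library lay just above the highest A2A antagonist library, and the log2 difference was 0.09 ± 0.03 (edgeR adjusted p = 0.220). The receptor genes gave -0.03 for Nr1h2 (LXRβ) and 0.01 for Nr1h3 (LXRα), and Abcg1 gave 0.02 and Ch25h 0.01. Each of these 4 had an adjusted p of at least 0.812. Across all roles the 20 members with an unadjusted p above 0.05 had log2 differences of -0.08 to 0.10, 12 of them lower and 8 higher, and the smallest adjusted p among them was 0.409.

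Log2 differences between the groups moved with gene length across all genes, and the members differ in length. Among genes whose average log2 CPM was 3 or more, those of the shortest quintile (57 to 2610 bases) had a median log2 difference of -0.06 and 77.9% were lower in the dual group. The longest quintile (8009 to 123179 bases) had a median of 0.04, with 25.3% lower. By these limits of length the 32 members were spread as 6, 7, 7, 8 and 4 from the shortest quintile to the longest. Lrp1, Abca1, Soat1 and Lss lie in the longest.

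A fit with a length correction per library, chosen after seeing the data, called 9 genes and 0 members. Of the members, 7 then had an unadjusted p under 0.05, against 9.92% of all genes, and all 7 were enzymes lower in the dual group (Cyp51, Dhcr7, Fdft1, Fdps, Lss, Msmo1 and Mvd). Among these, 6 belonged to the 12 of the uncorrected fit. Enzymes were still 15 lower of 18, with a median log2 difference of -0.08. The log2 difference of Lss, a long gene, went from -0.11 to -0.15 and that of Fdft1 from -0.15 to -0.14 (edgeR adjusted p = 0.177). Lrp1 went to 0.10 (edgeR adjusted p = 0.596) and Abca1 to 0.05 (edgeR adjusted p = 0.568). Pmvk, a short gene, went from -0.12 to -0.07, and Ebp from -0.06 to -0.02. The source of the length trend was not tested.

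**Figure D4:**
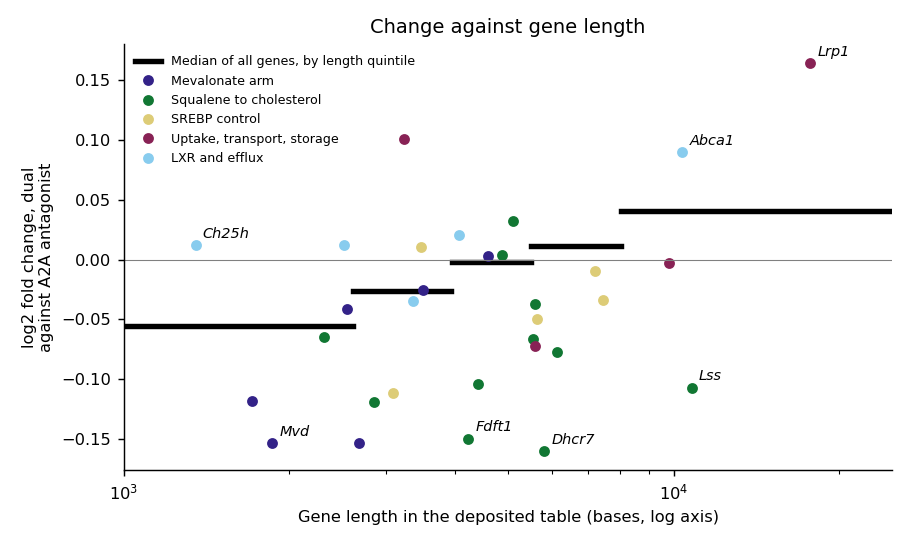
Log2 difference (dual minus A2A antagonist, vertical axis) by gene length in bases (log axis). Points are members coloured by role, horizontal lines the median of all genes in each quintile by length, which goes from -0.06 in the shortest quintile to 0.04 in the longest. The outer quintiles run past the ends of the axis, and Fdps, whose level is below the limit for the quintiles, is left out.

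A wider list of 46 genes of the pathway beyond the members had 0 called and 3 with an unadjusted p under 0.05, 1 lower and 2 higher in the dual group, against 12.8% of all genes tested. In all, 28 were lower and 18 higher, with a median log2 difference of -0.01. By sublist, the numbers lower and higher were 2 and 3 for other synthesis genes, 8 and 6 for uptake and lysosomal handling, 4 and 2 for SREBP processing, 7 and 3 for LXR targets and oxysterol enzymes, and 7 and 4 for the fatty acid genes driven by SREBP. Acaca, acetyl-CoA carboxylase, had the smallest p, with 76.5, 79.2, 74.8 and 79.6 CPM in the A2A antagonist group and 84.9, 80.0, 84.4 and 84.5 CPM in the dual group. Its log2 difference was 0.11 ± 0.04 (edgeR adjusted p = 0.220), with no overlap of the groups, and 0.04 with the length correction (edgeR adjusted p = 0.775). The next 3 were Cyp7b1 (an oxysterol hydroxylase) at -0.10 (-0.05 with the length correction), Gramd1c (a sterol transfer protein) at 0.16 and Lipa (lysosomal acid lipase) at 0.07, with edgeR adjusted p of 0.372, 0.373 and 0.438. The DESeq2 test called none of the 46 either.

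The A2A antagonist group was also compared with activated cells given vehicle, for which the authors' mean normalised counts were the values used. These means carry no error here and no test was made. No vehicle sample is among the samples of the series, and whether its libraries were prepared and sequenced together with the others is not given in the sources used here. An effect of preparation and one of the antagonist cannot be told apart. The same A2A antagonist libraries enter both comparisons. Of the 18860 genes with an average of at least 10, 3.7% were at least 1.5-fold above control and 10.9% at least 1.5-fold below. By the same measure 1 member was above and 0 below, with 19 of the 32 higher and 13 lower.

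Abcg1, the exporter to lipoprotein particles, was the member past that fold, with an authors' mean of 706 in the A2A antagonist group and 467 in control (1.51-fold). Ebp followed at 1408 and 1169, Scap at 5456 and 4724 and Pmvk at 1151 and 1015. At the other end stood Lrp1, at 81842 against 108246, a log2 ratio of -0.40, and Mylip, at 617 against 768. Idi1 stood at 1015 against 1145 and Hsd17b7 at 1318 against 1465. Apart from Abcg1, Ebp, Lrp1 and Mylip, the members lay between -0.17 and 0.21 on the log2 scale. The 18 enzymes had log2 ratios of -0.17 to 0.27, 12 higher and 6 lower, and the median over all 32 members was 0.04 against 0.01 over all genes. For Fdft1 the authors' means were 4786 and 4488, and for Abca1 48047 and 43333.

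**Figure D5:**
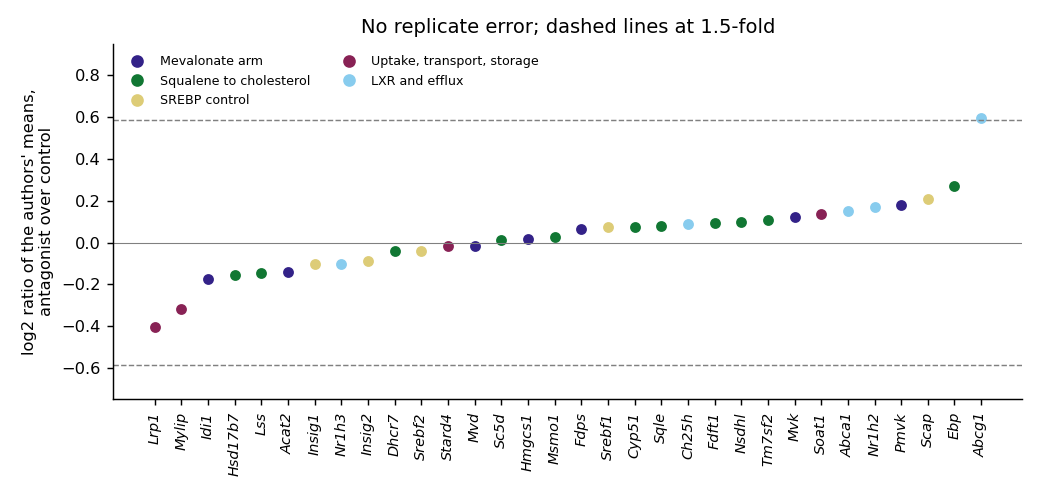
Log2 ratio of the authors' mean normalised counts, A2A antagonist over control, for the 32 members, ordered by ratio and coloured by role. There are no error bars because only the means were used. Dashed lines mark a 1.5-fold ratio in each direction, and Abcg1 is the one member beyond them.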

How the data were processed

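RNA sequencing was performed on 8 primary microglial cultures, 4 per group. According to the methods, reads were aligned to the mouse genome with HISAT2 and counted per gene with featureCounts (version 1.5.0-p3, from the submitters' processing notes), and it was not stated whether counting used the strand. The deposited values used here are the authors' raw counts per gene, the authors' FPKM values and, for the comparison with vehicle, the authors' mean normalised counts, a signal scaled by library size. The table against control, with 31601 genes, also holds 9 columns of per-sample control values, which match no sample of the series and were not used. Each deposited table holds log2 fold changes and p-values of the authors' own comparisons, which were neither used nor printed. Samples were grouped by title.

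Counts were filtered with filterByExpr (minimum count 10), scaled with TMM factors and tested with the quasi-likelihood F test of edgeR 4.0.16 in R 4.3.3, with the group as the one factor. Two-sided p-values were adjusted over 18756 genes with the Benjamini-Hochberg procedure. Standard errors were derived from the F statistics. CPM are counts per 1000000 TMM-scaled counts, and SDs are over 4 libraries. Library totals were 32630602 to 45878639. Pairs of libraries within a group differed beyond sampling noise (chi-square over degrees of freedom 3.58 to 8.65), so no file was treated as one library deposited again. This does not show that they came from separate cultures. The script was tested on simulated data. Alternatives were RLE scaling, no filter on low counts, the replicate number as a block, leaving out each library, the Wald test of DESeq2 1.42.0, a 1.5-fold and a 2-fold limit for the authors' means, and a gene-length correction (lowess, span 0.3, as an offset).

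The members and lists were chosen with earlier results of these data known. Values in each library are given for members with an unadjusted p under 0.05, FPKM for the highest and lowest member of each role, the authors' means for the 4 highest and 4 lowest ratios, and log2 differences for the 5 other pathway genes with the smallest p, of which 1 is not reported here. The level of Abca1 in FPKM, the values of Ctsb and the authors' means of Fdft1 and Abca1 were added after their values were seen. The deposited coordinates of 29 of the 32 members equal those of GENCODE mouse release M21 (GRCm38). The exceptions are Tm7sf2, Abcg1 and Ch25h. Exonic bases are shared with another gene by 11 members.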

Additional observations from a re-analysis of the deposited data

Results flagged for a closer look

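In 3 of 64 groups of 4 libraries (each member in each group) one library stood apart by Dixon's criterion (the gap to the nearest library over the range of the group), and chance alone marks about 1 in 20. All 3 concern dual replicate 4. Sc5d stood at 71.1 CPM there against 62.8 to 63.8 CPM in the other 3 dual libraries. Insig2 stood at 58.7 CPM against 55.3 to 55.9 CPM, and Nr1h2 was low, at 80.2 CPM against 92.3 to 94.3 CPM. None of these 3 members had an unadjusted p under 0.05 between the groups.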

How the results depend on the processing

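The count of genes called, 39, was 39 with RLE scaling, 366 without the filter on low counts, 381 by DESeq2 and 9 with the length correction. It ranged from 0 (without A2A antagonist replicate 4 or dual replicate 3) to 172 (without A2A antagonist replicate 1) when single libraries were left out, with 5 and 6 without A2A antagonist replicates 2 and 3. The causes were not tested. The count of members called, 0, was 2 without the filter and 1 by DESeq2, and 0 whichever library was left out. The 12 members at an unadjusted p under 0.05 became 7 with the length correction and 7 to 12 with a library left out. There were 7 without A2A antagonist replicate 4 or dual replicate 3 and 8 without A2A antagonist replicate 2. The share of all genes also moved, from 12.8% to 9.92% with the length correction and to 9.49% to 13.9% with a library left out. It was 9.49% without A2A antagonist replicate 4, 11.0% without dual replicate 3 and 10.2% without A2A antagonist replicate 2. The median log2 difference of the members ranged from -0.0582 (without dual replicate 2) to -0.0321. Groups did not overlap for 6 to 9 members with a library left out. Fewer libraries make this easier for any gene, and the share over all genes was not computed for these sets. At a 2-fold limit, 0 members passed on the authors' means. The replicate number did not pair the libraries (correlations of same-numbered libraries -0.053 to 0.041, with 2 of 8 libraries correlating best with their own number). With the replicate number as a block 17 genes and 0 members were called. By that fit 12 members had an unadjusted p under 0.05, against 10.6% of all genes.

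Over the 37 genes chosen by the rule for named genes, 444 of 481 alternative values kept their direction and their side of the threshold, 3 moved past the threshold and 34 changed sign. Without the filter Hmgcs1 was at -0.002 and Sc5d at -0.0018. With a library left out, the ranges of the log2 differences that changed sign were -0.0608 to 0.01 (Scap), -0.0588 to 0.0167 (Nr1h2), -0.0796 to 0.0103 (Tm7sf2), -0.0915 to 0.0105 (Idi1), -0.0109 to 0.0378 (Ch25h), -0.0244 to 0.0767 (Abcg1), -0.0101 to 0.043 (Insig2), -0.0341 to 0.0253 (Srebf2), -0.0343 to 0.0627 (Nr1h3), -0.0246 to 0.0262 (Hmgcs1), -0.0415 to 0.0282 (Sc5d) and -0.0252 to 0.0123 (Soat1). Fdps had the fewest counts of the members, 47 to 103 per library, which limits the precision of its value.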
